A study of Mus musculus with 6 samples.

Results

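The 10 genes described here are used as markers of neural progenitors, as opposed to neurons, and of these Zic1 and Zic2 are made mainly in the dorsal neural tube. They are the SoxB genes Sox1, Sox2, Sox3 and Sox21, the zinc finger genes Zic1 and Zic2, and Msi1, Nes, Fabp7 and Prom1. They were taken as a list by name, and probes were assigned to them through the RefSeq accession of each probe. All 10 were among the 19795 genes tested, with 15 probes of 24423 tested, and all 15 probes were well above background on all 6 arrays.

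The tissue was the trunk of mouse embryos at embryonic day 9.5, running back from the otic vesicle as far as somite 15 and including the forelimbs. Arid3b-null trunks were compared with wild-type trunks, with 3 arrays in each group and RNA of 4 embryos pooled for each array. Arid3b encodes a DNA-binding protein of the ARID family. The labels give the genotype as Arid3b-null and wild type, without a strain, a sex or a description of the allele.

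SoxB1 proteins (Sox1, Sox2 and Sox3) bind DNA through an HMG box and keep neuroepithelial cells in a dividing, undifferentiated state. Sox21 belongs to the SoxB2 group, which in chick embryos opposes SoxB1 proteins and favours exit towards neurons. Notch signalling, read out by Hes genes, acts beside the SoxB1 factors to hold cells as progenitors, and neurons form as cells leave that state. Several of the 10 genes are not confined to the neural tube. Sox2 is also made in the foregut and otic epithelium, Nes in vessels and muscle precursors, Zic1 and Zic2 in dorsal somites, and Prom1 in many epithelia.

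Each slide carried 1 wild-type array at position 1 and 1 Arid3b-null array at position 2, so position on the slide and genotype cannot be told apart. The 75th percentile of the processed signal was 617.5 to 668.6 units on the Arid3b-null arrays and 611.2 to 844.4 units on the wild-type arrays. Arid3b itself fell on its brightest probe, which read 0.54, 0.65 and 0.46 in Arid3b-null and 2.18, 2.57 and 1.97 in wild type (log2 change -1.69 ± 0.17, SE, limma adjusted p = 0.0015), leaving 31.0% of the wild-type signal. Its 2 dimmer probes also fell (limma adjusted p = 0.000379 and 0.0013), but only 2 of 3 Arid3b-null arrays measured them well above background, so no share is given for them. The labels do not say which part of the gene is missing, so the place of these probes relative to it is not known here. All levels below are log2 of the background-subtracted signal minus the array's 75th percentile, so that 0 is a signal at that percentile and a difference of 1 is a doubling. Changes are Arid3b-null minus wild type with the standard error of the limma fit, and adjusted p-values are those of limma after Benjamini-Hochberg adjustment over all tested genes. The labels do not say whether pools came from separate litters, so p-values measure the spread between these pools.

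Of the 10 genes, 4 fell in Arid3b-null trunks (Fabp7, Sox3, Sox21 and Nes), 1 rose (Zic2) and 5 did not pass the test (Sox1, Sox2, Zic1, Msi1 and Prom1). Across all tested genes 12.9% fell and 13.6% rose, 26.6% in all. These 5 calls held in 15 of 16 alternative settings. Under normexp background correction with each spot's local background 0 of the 10 genes passed, and over all genes 2 rose and 0 fell. The median change of the 10 genes was -0.37, beside a median of -0.04 over all tested genes. Below 0 were 9 of the 10 changes, and 10593 of the changes of all 19795 tested genes. The 9 include Sox2 at -0.02 and Zic1 at -0.13. Within the 3 slides the median change of the list was -0.40, -0.63 and -0.41. For 7 of the 10 genes no array of one group lay inside the range of the other, 6 of them lower and 1 higher in Arid3b-null. Over all tested genes that share was 46.1%, with 23.1% lower and 23% higher in Arid3b-null. In a bulk sample, fewer cells of a type and less RNA per cell cannot be told apart.

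**Figure D1:**
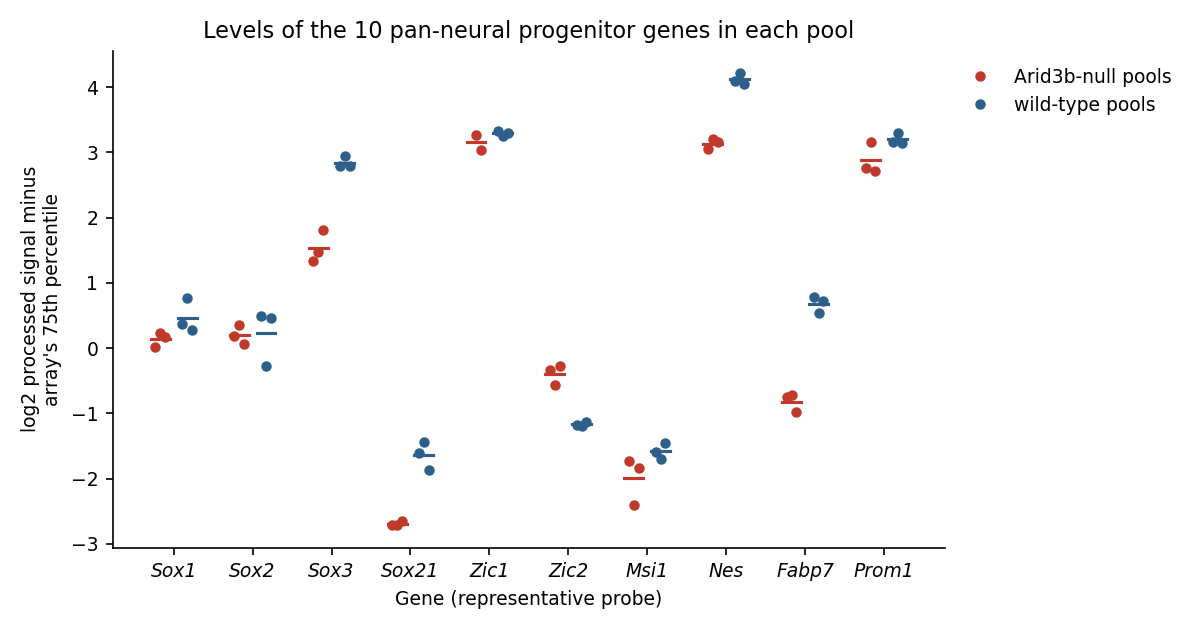
Level of each of the 10 genes in every pool, as log2 processed signal minus the array's 75th percentile, with Arid3b-null pools left of wild-type pools and a bar at each group mean. Sox3, Sox21, Nes and Fabp7 lie lower in all 3 Arid3b-null pools than in any wild-type pool and Zic2 lies higher, while the groups overlap for Sox2, Zic1 and Prom1. Zic1 has 2 Arid3b-null points because the spot on the array of Arid3b-null replicate 1 carried an outlier mark. Levels of different genes come from different probes and are not comparable with each other.

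Of the 3 SoxB1 genes, Sox3 alone passed the test. Sox3 is made in the neural plate and tube from early stages. It read 1.34, 1.48 and 1.81 in the Arid3b-null pools, against 2.79, 2.94 and 2.78 in the wild-type pools. The groups were far apart, and Arid3b-null replicate 3 was the highest of its group. Sox3 fell by 1.30 ± 0.15 on the log2 scale, or 2.45-fold (adjusted p = 0.00224), leaving 40.7% of the wild-type signal. Within slides its change was -1.45, -1.46 and -0.98.

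Sox1, a marker of committed neuroepithelium, read 0.02, 0.23 and 0.17 in the Arid3b-null pools and 0.36, 0.77 and 0.27 in the wild-type pools. The groups did not overlap, but the gap between the highest Arid3b-null pool and the lowest wild-type pool was narrow, and wild-type replicate 2 stood above the rest. Its change of -0.33 ± 0.16 did not pass (adjusted p = 0.167, 95% interval -0.70 to 0.04). It was -0.18 without wild-type replicate 2 (adjusted p = 0.361) and -0.14 with the probes of the gene averaged (adjusted p = 0.532). A dimmer probe of Sox1 had a change of 0.04 ± 0.17.

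Sox2, which is also the SoxB1 gene of pluripotent cells, read 0.18, 0.35 and 0.07 in the Arid3b-null pools and 0.50, -0.28 and 0.46 in the wild-type pools. The groups overlapped, as wild-type replicate 2 was the lowest of all 6 pools while the other wild-type pools were the highest. The change was -0.02 ± 0.23 (adjusted p = 0.946), with a 95% interval from -0.56 to 0.51, and within slides it was -0.31, 0.63 and -0.40. Without wild-type replicate 2 it was -0.28 (adjusted p = 0.2). The interval does not reach the change of Sox3, and it does not show that Sox2 was equal in the groups.

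Differences between genes taken within an array need no scaling between arrays. Sox3 minus Sox2 was 1.34 ± 0.35 in Arid3b-null and 2.61 ± 0.53 in wild type (SD, n = 3 each, exact two-sided permutation p = 0.1). Sox3 minus Sox1 was 1.40 ± 0.20 in Arid3b-null and 2.37 ± 0.18 in wild type (SD, n = 3 each, exact p = 0.1). Fabp7 minus Sox2 was -1.02 ± 0.07 in Arid3b-null and 0.46 ± 0.32 in wild type (SD, n = 3 each, exact p = 0.1). With 3 arrays in each group 0.1 is the smallest p this test can give, so it cannot pass 0.05, and p was also 0.1 after Benjamini-Hochberg adjustment over the 3 pairs. In each of the 3 pairs no Arid3b-null value reached the lowest wild-type value. The pairs were not among the planned tests, and each sets a gene that fell against one that did not pass. Their separation therefore restates the changes of Sox3 and Fabp7 and is not separate evidence.

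Sox21, the SoxB2 gene, read -2.71, -2.71 and -2.65 in the Arid3b-null pools, against -1.60, -1.43 and -1.86 in the wild-type pools. The Arid3b-null pools lay close together and far below every wild-type pool. Sox21 fell by 1.06 ± 0.13 on the log2 scale, or 2.09-fold (adjusted p = 0.00308), and its within-slide changes were -1.11, -1.28 and -0.79. Its other probe gave a smaller difference in the same direction, -0.45 ± 0.14, which did not pass over all tested probes (adjusted p = 0.0628), and under normexp background correction with a median background per array the fall of the brighter probe was 1.62-fold.

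Fabp7, which encodes the brain lipid-binding protein of radial glia and is known as a Notch target, had the largest change of the 10 genes, ranked 484 of 19795 by size. It read -0.76, -0.73 and -0.98 in the Arid3b-null pools, against 0.78, 0.54 and 0.73 in the wild-type pools. The groups were separated by more than a full log2 unit with little spread inside either. Fabp7 fell by 1.503 ± 0.12 on the log2 scale, or 2.83-fold (adjusted p = 0.000854), leaving 35.3% of the wild-type signal. Within slides its change was -1.54, -1.27 and -1.70.

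Nes encodes nestin, the intermediate filament protein of neuroepithelial and other precursor cells. It read 3.05, 3.20 and 3.15 in the Arid3b-null pools and 4.09, 4.21 and 4.05 in the wild-type pools. The groups were about a log2 unit apart, and the SD was 0.08 in Arid3b-null and 0.08 in wild type. Nes fell by 0.99 ± 0.10 on the log2 scale, or 1.98-fold (adjusted p = 0.00177), and its within-slide changes were -1.05, -1.01 and -0.90.

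**Figure D2:**
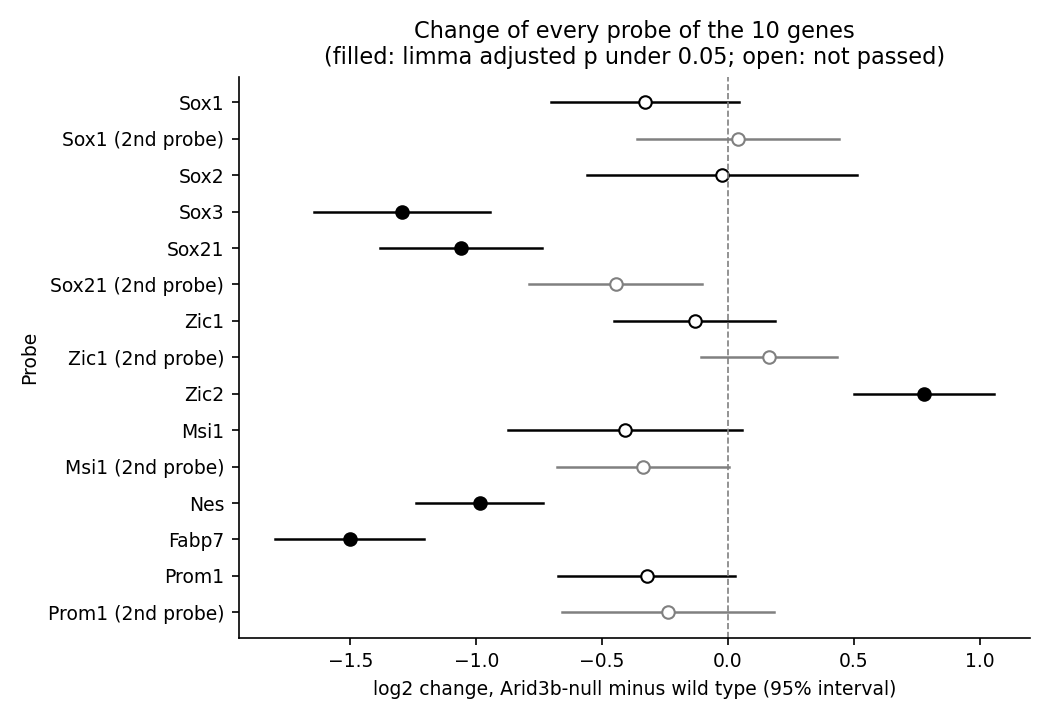
log2 change (Arid3b-null minus wild type) of all 15 probes of the 10 genes with its 95% interval, from the fit over all tested probes, where black marks the probe that represents a gene and grey a second probe. The 5 filled points are the representative probes of Sox3, Sox21, Zic2, Nes and Fabp7, and none of the 5 second probes passed the test.

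The windows upstream of the annotated starts of 3 genes that fell are shown together with that of Sox2, which did not pass, as the start regions of members on either side of the threshold. They are RefSeq sequences of build GRCm38.p6, 250 bases upstream of the annotated start, 5′ to 3′ on the strand of the gene, with motif matches in capitals.
Fabp7, chr10:57784673-57784922, plus strand: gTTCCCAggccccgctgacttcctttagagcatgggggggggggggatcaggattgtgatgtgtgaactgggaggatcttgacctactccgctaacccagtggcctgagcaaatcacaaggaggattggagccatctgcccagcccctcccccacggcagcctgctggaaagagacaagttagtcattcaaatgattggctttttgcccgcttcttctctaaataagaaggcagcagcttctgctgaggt
Nes, chr3:87970843-87971092, plus strand: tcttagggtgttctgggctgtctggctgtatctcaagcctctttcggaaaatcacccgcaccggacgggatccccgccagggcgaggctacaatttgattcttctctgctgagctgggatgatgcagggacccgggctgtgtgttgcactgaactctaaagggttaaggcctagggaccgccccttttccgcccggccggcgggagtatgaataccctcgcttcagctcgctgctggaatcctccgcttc
Sox21, chr14:118237031-118237280, minus strand: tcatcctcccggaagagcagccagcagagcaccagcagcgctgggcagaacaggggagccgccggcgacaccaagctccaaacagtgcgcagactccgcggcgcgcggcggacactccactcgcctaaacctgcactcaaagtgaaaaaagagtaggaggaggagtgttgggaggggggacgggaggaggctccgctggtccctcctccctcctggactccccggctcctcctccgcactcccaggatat
Sox2, chr3:34649745-34649994, plus strand: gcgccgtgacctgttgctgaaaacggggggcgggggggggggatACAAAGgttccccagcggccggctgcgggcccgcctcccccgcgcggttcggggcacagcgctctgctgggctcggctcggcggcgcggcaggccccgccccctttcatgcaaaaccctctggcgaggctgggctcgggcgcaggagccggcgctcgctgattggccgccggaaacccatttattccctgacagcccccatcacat
The motifs searched on both strands were the Sox motifs ACAAAG and ACAATG, the octamer ATGCAAAT bound by POU factors, TGGGAA bound by the Notch effector RBPJ, and the AT-rich core ATTAAA of ARID3 proteins. They do not overlap each other in these windows. In the 300-base windows, which add the 50 bases after the start, Fabp7 holds TGGGAA at -249 on the strand opposite the gene, so that its reverse complement stands in capitals, and Sox2 holds ACAAAG on its own strand at -206, while Nes and Sox21 hold none of the 5. Of the 32851 windows in the table, 25.6% hold TGGGAA, 18.7% ACAAAG, 12.6% ACAATG, 13.9% ATTAAA and 1.74% the octamer. Windows were matched by symbol for 7 of the 10 genes, and not for Sox3, Msi1 and Zic2. Among these TGGGAA occurs in those of Fabp7, Prom1 and Sox1, the octamer in that of Sox1, ATTAAA in 1 of the windows of Prom1, and ACAATG in none. A match is a description of these letters and not a binding site.

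Zic2 was the 1 gene of the 10 that rose. It encodes a zinc finger factor of the dorsal neural tube whose loss in mice leaves the neural tube open. It read -0.33, -0.57 and -0.28 in the Arid3b-null pools, against -1.18, -1.19 and -1.14 in the wild-type pools. The wild-type pools lay close together and below every Arid3b-null pool. Zic2 rose by 0.78 ± 0.115 on the log2 scale, or 1.72-fold (adjusted p = 0.00509), and its within-slide changes were 0.85, 0.62 and 0.86.

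Zic1, which is made beside Zic2 in the dorsal neural tube and somites, read 3.27 and 3.04 in Arid3b-null replicates 2 and 3 and 3.32, 3.26 and 3.29 in the wild-type pools. The spot on Arid3b-null replicate 1 carried the scanner software's outlier mark and was left out of the fit. The change was -0.13 ± 0.13 (adjusted p = 0.485, 95% interval -0.45 to 0.18), and -0.25 with that spot kept (adjusted p = 0.229). A dimmer probe, measured on all arrays, had a change of 0.16 ± 0.11.

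Msi1 encodes an RNA-binding protein that represses translation of Numb, a Notch inhibitor. It read -1.73, -2.41 and -1.84 in the Arid3b-null pools and -1.59, -1.70 and -1.45 in the wild-type pools. The groups did not overlap, with Arid3b-null replicate 2 far below the rest, and the change of -0.41 ± 0.20 did not pass (adjusted p = 0.167). Without that pool it was -0.20 (adjusted p = 0.326). Its other probe had a change of -0.34 ± 0.14 (adjusted p = 0.128).

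Prom1 encodes prominin-1 (CD133), a protein of membrane protrusions on the apical face of neuroepithelial and other epithelial cells. It read 2.76, 3.16 and 2.72 in the Arid3b-null pools and 3.16, 3.30 and 3.14 in the wild-type pools. Arid3b-null replicate 2 lay inside the wild-type range and the others below it. The change of -0.32 ± 0.15 did not pass (adjusted p = 0.151), but it passed without that pool (-0.46, adjusted p = 0.0487). A dimmer probe of Prom1 had a change of -0.24 ± 0.18 (adjusted p = 0.357).

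**Figure D3:**
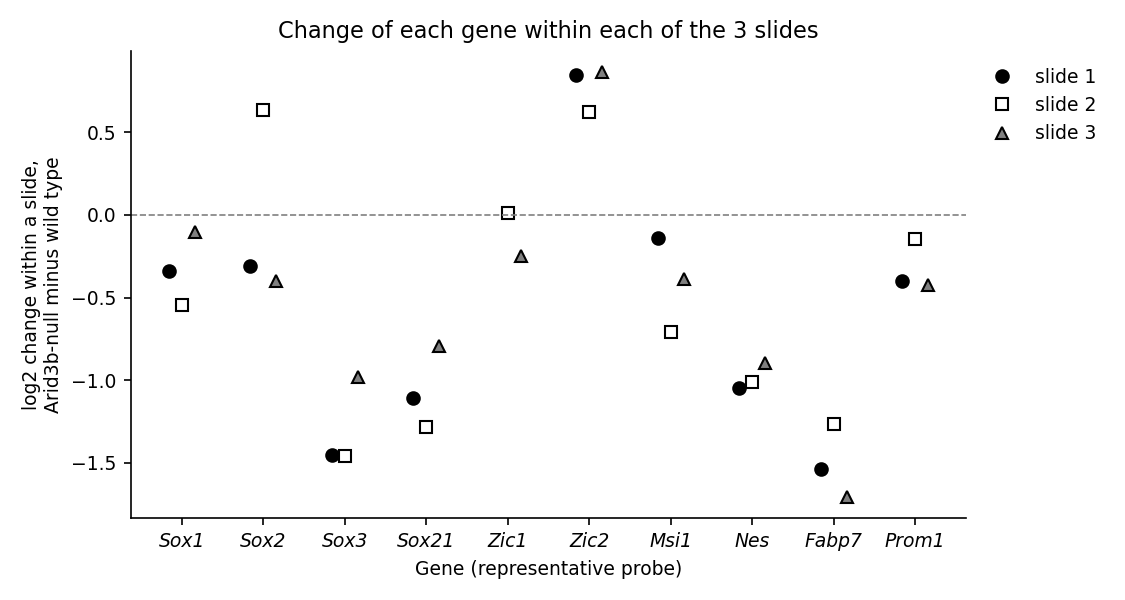
log2 change of each gene within each of the 3 slides, Arid3b-null minus the wild-type array of the same slide, with 1 symbol for each slide. Fabp7, Sox3, Sox21 and Nes lie below 0 on all 3 slides and Zic2 above 0, while Sox2 is at 0.63 on slide 2 and below 0 on the other slides. Zic1 has no value on slide 1.

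Close paralogues of these genes changed in both directions. Of 8 paralogues tested, 3 rose (37.5%) and 1 fell (12.5%), with a median change of 0.22. Over all tested genes 13.6% rose and 12.9% fell, with a median of -0.04. Zic5 lies next to Zic2 among coding genes on chromosome 14 and rose by 0.81 ± 0.20 on the log2 scale, or 1.76-fold (adjusted p = 0.026). Zic5 read -3.54, -3.45 and -3.86 in the Arid3b-null pools and -4.72, -4.07 and -4.49 in the wild-type pools, and the groups did not overlap. Zic4 lies next to Zic1 on chromosome 9 and fell 1.86-fold (adjusted p = 0.00361), reading -1.68, -1.76 and -1.90 in the Arid3b-null pools and -0.84, -1.03 and -0.78 in the wild-type pools.

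Fabp3, the heart fatty acid-binding protein gene, rose 2.33-fold (adjusted p = 0.00403), opposite in direction to Fabp7. Fabp5 had a change of -0.81 ± 0.29 (adjusted p = 0.0864), which passed when the slide was a block (adjusted p = 0.0226) and without wild-type replicate 2 (-1.11, adjusted p = 0.024). Prom2 rose 1.54-fold (adjusted p = 0.0335), Msi2 had a change of 0.11 ± 0.16 (adjusted p = 0.642), and the SoxB2 gene Sox14 a change of -0.26 ± 0.60 (adjusted p = 0.782). The call of Zic5 was lost without Arid3b-null replicate 1 or 2 or wild-type replicate 1 or 3 (adjusted p = 0.0722, 0.08, 0.0782 and 0.0704), and that of Prom2 when any array other than that of Arid3b-null replicate 3 was left out (adjusted p = 0.0526 to 0.0953). Under normexp with a median background per array, Zic5 had an adjusted p of 0.0801 and Prom2 of 0.164.

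Sox genes outside the SoxB group were read next to them. Of 14, 12 were tested (Sox15 and Sox30 were too dim), 4 rose and 2 fell, and the median change was 0.30. These are 33.3% and 16.7%, beside 13.6% and 12.9% of all tested genes. Sox17 and Sox7, factors of endothelium and, for Sox17, endoderm, rose 2.31-fold (adjusted p = 0.00136) and 1.79-fold (adjusted p = 0.00474), and Sox10, a factor of neural crest, rose 1.80-fold (adjusted p = 0.0104). Sox11, a SoxC factor of cells that are becoming neurons and also of mesenchyme, fell 1.60-fold (adjusted p = 0.00596). The other calls, named after their values were seen, were Sox8 at 1.48-fold lower (adjusted p = 0.0368, 0.0564 with the slide as a block) and Sox18 at 1.30-fold higher (adjusted p = 0.0403, 0.0626 with the block).

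**Figure D4:**
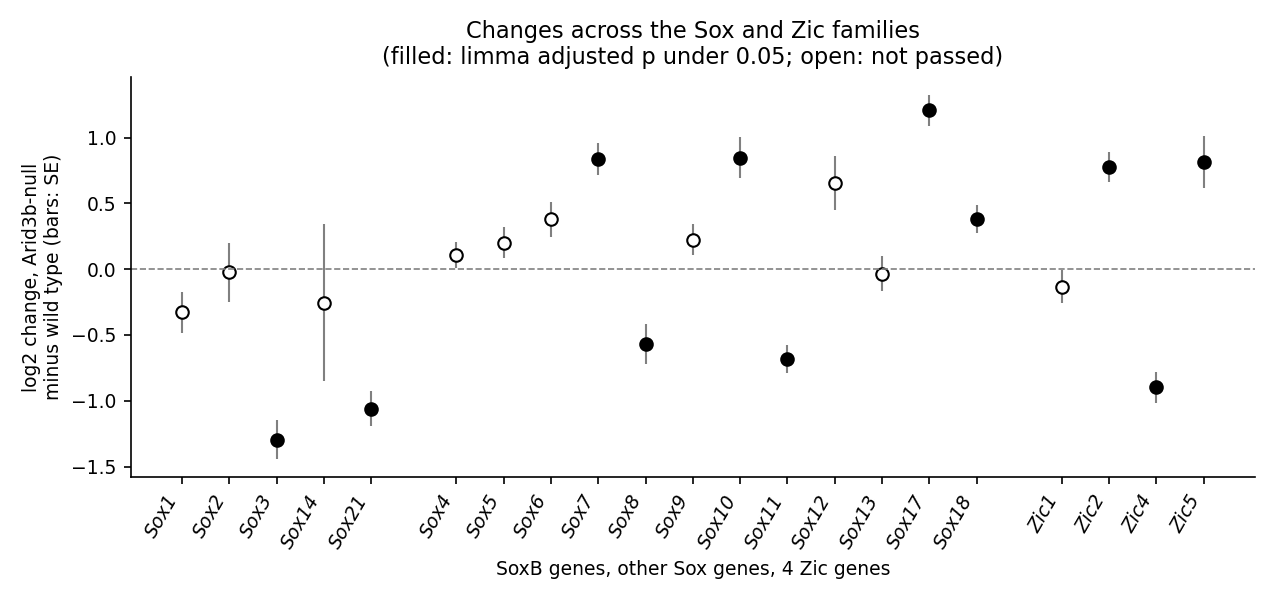
log2 change (Arid3b-null minus wild type, bars are SE) of the SoxB genes, the other tested Sox genes and 4 Zic genes. In the SoxB group Sox3 and Sox21 are filled and below 0, among the other Sox genes 4 are filled above 0 and 2 below 0, and Zic2 and Zic5 lie above 0 while Zic4 lies below 0.

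Other genes of neural progenitors changed in both directions. Of 26 tested, 9 fell (34.6%) and 3 rose (11.5%), beside 12.9% and 13.6% of all tested genes, and the median change was -0.23. With the slide as a block 7 fell and 3 rose, without the filter on dim probes 5 fell and 0 rose, and with 1 array left out 6 to 8 fell and 0 to 2 rose. Their summed signal was 169.7 to 182.6 times the 75th percentile in Arid3b-null and 205.4 to 215 times in wild type. Here and below, such a sum depends mostly on the brightest probes, in this list among them that of Hes5. It does not weigh the genes of a list alike. Hes5, the Notch effector of the neural tube, read 3.49, 3.66 and 3.87 in the Arid3b-null pools, against 5.03, 4.92 and 4.88 in the wild-type pools, and fell 2.41-fold (adjusted p = 0.00157). Pou3f3, a POU factor that partners Sox proteins in neural cells, fell 2.89-fold (adjusted p = 0.0019), Hes6, a Hes gene of cells starting to differentiate, 1.78-fold (adjusted p = 0.00461) and the cyclin gene Ccnd1 1.57-fold (adjusted p = 0.00528). The fall of Pou3f3 was 1.85-fold under normexp with a median background per array. The other Hes genes of the list, Hes1 and Hes3, did not pass (changes of 0.07 ± 0.40 and 0.43 ± 0.23, adjusted p = 0.917 and 0.21). The 3 genes that rose, named after their values were seen, were Ncam1 (1.40-fold, adjusted p = 0.018), which encodes a cell adhesion molecule, Lin28a (1.501-fold, adjusted p = 0.0235), which encodes an RNA-binding protein of early embryonic cells, and Pou3f1 (1.33-fold, adjusted p = 0.0444), which encodes a POU factor. The calls of Sox8, Sox18, Ncam1, Lin28a and Pou3f1 were lost when Arid3b-null replicate 1, Arid3b-null replicate 2 or wild-type replicate 1 was left out (adjusted p = 0.0542 to 0.136). Those of Sox18 and Pou3f1 were lost whichever array was left out (0.0565 to 0.136). Sox8 also missed without wild-type replicate 2 or 3 (0.073 and 0.0856), and Lin28a without Arid3b-null replicate 3 or wild-type replicate 3 (0.0529 and 0.0656). Sox8, Sox18 and Pou3f1 also missed with median scaling (0.0504, 0.109 and 0.106), and so did Ncam1, narrowly (0.05 as rounded). Sox8, Sox18 and Pou3f1 missed too under normexp with a median background per array (0.445, 0.062 and 0.081). In the deposited value table they missed as well (0.0794, 0.0624 and 0.0856). Sox8 and Pou3f1 missed with quantile normalization (0.0648 and 0.0605) and under normexp with quantile scaling (0.16 and 0.0832).

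Of the 16 early neuron genes, 13 fell and 0 rose (0 also at an unadjusted limma p under 0.05), and their median change was -2.41, beside -0.37 for the 10 progenitor genes. Over all 19795 tested genes 12.9% fell and 13.6% rose, and 3964 were higher and 3974 lower in Arid3b-null at that unadjusted p. Within slides the neuron median was -2.61, -1.99 and -2.53. Ina, a neuronal intermediate filament gene, read -1.34, -1.29 and -1.58 in the Arid3b-null pools and 1.47, 1.29 and 1.39 in the wild-type pools, a 6.87-fold fall (adjusted p = 0.000184). The neurofilament gene Nefl fell 4.12-fold, Elavl3, which encodes a neuronal RNA-binding protein, 6.97-fold and Stmn3, which encodes a microtubule regulator, 4.58-fold (adjusted p = 0.000375, 0.000391 and 0.000391). The summed signal of the 16 genes was 5.73 to 7.005 times the 75th percentile in Arid3b-null and 16.6 to 19.3 times in wild type. In each pool, the median of the 10 progenitor genes relative to their wild-type mean was -0.45, -0.54 and -0.39 in Arid3b-null and -0.01, 0.03 and -0.03 in wild type. The corresponding neuron medians were -2.56, -2.12 and -2.37 in Arid3b-null and 0.13, -0.15 and 0.03 in wild type. The difference between the 2 lists was not tested.

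**Figure D5:**
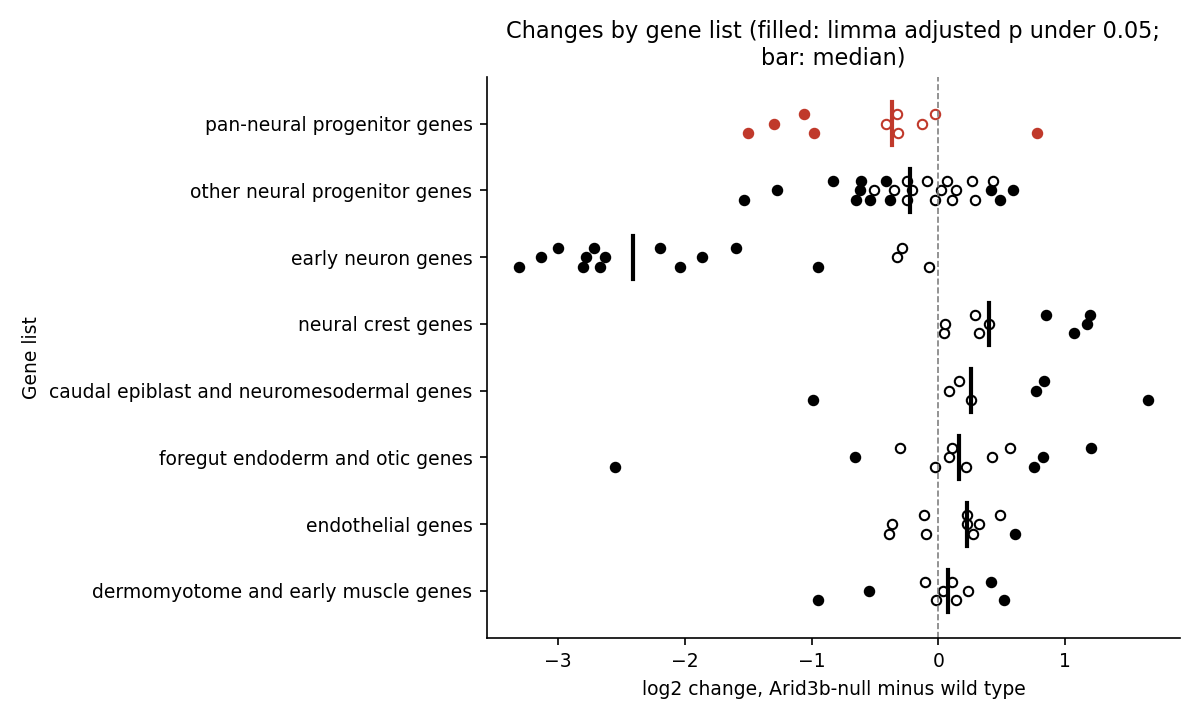
log2 change (Arid3b-null minus wild type) of each tested gene by list, with filled points for genes that passed the test, open points for those that did not and a bar at the list's median. The median is -0.37 for the 10 pan-neural progenitor genes, -0.23 for the other progenitor genes and -2.41 for the early neuron genes, and the other lists have medians above 0.

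Markers of other cells that make some of the 10 genes were read beside them, and their part in the result was not tested. Of all 19795 tested genes 13.6% rose and 12.9% fell. At an unadjusted limma p under 0.05, 3964 of them were higher and 3974 lower in Arid3b-null. Of 9 neural crest genes tested, 4 rose and 0 fell (6 and 0 at an unadjusted limma p under 0.05), with a median of 0.40 and a summed signal of 18.7 to 19.9 times the 75th percentile in Arid3b-null and 13.6 to 15.9 in wild type. The crest factors Tfap2a and Foxd3 rose 2.26-fold and 2.10-fold, and the neuregulin receptor gene Erbb3 2.29-fold (adjusted p = 0.00127, 0.00129 and 0.00607), beside Sox10 above. Only 2 of 3 wild-type arrays measured Erbb3 well above background, so it was tested only because of its signal on the Arid3b-null arrays. Erbb3 had an adjusted p of 0.0604 under normexp with a median background per array. Of 10 endothelial genes, which mark a tissue where Nes is made, 1 rose and 0 fell (2 and 1 at an unadjusted limma p under 0.05), with a median of 0.23 and a summed signal of 33.1 to 37.3 in Arid3b-null and 31.98 to 36.2 in wild type. The riser was the endothelial receptor gene Tie1 at 1.52-fold (adjusted p = 0.0281), which missed when the slide was a block (adjusted p = 0.0508), with median scaling (0.0561) or without Arid3b-null replicate 2 or 3 or wild-type replicate 1 or 3 (0.0707, 0.0803, 0.0901 and 0.0736). Of the 10 endothelial changes 4 were below 0, and the gene lower at the unadjusted threshold was Cldn5 (-0.36, adjusted p = 0.0744).

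Of 10 tested genes of the dermomyotome and early muscle, where Zic1 and Nes are also made, 2 rose and 2 fell. These are 20% each, beside 13.6% and 12.9% of all tested genes. Their median was 0.07, and their summed signal was 21.5 to 24.6 in Arid3b-null and 21.5 to 23.8 in wild type. Myog, which encodes the muscle factor myogenin, fell 1.93-fold (adjusted p = 0.0023) and Meox2 1.46-fold (0.0256), while Met, which encodes a receptor of migrating muscle precursors, rose 1.43-fold (0.0118). Meox2 did not pass without Arid3b-null replicate 2 or 3 or wild-type replicate 1 or 2 (adjusted p = 0.0691, 0.0662, 0.0921 and 0.069) nor Met without wild-type replicate 1 (0.0543). Pax3 and Pax7 are counted in this list and among the other progenitor genes, and Myf5 and Myod1 were too dim to be tested.

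Of 12 foregut endoderm and otic genes tested, 3 rose (25%) and 2 fell (16.7%), beside 13.6% and 12.9% of all tested genes. Their median was 0.16, and their summed signal was 14.3 to 15.3 in Arid3b-null and 12.5 to 14.4 in wild type. Beside Sox17, Pax8 rose 1.69-fold (adjusted p = 0.0138) and Fbxo2 1.77-fold (0.0173). Pax8 did not pass without wild-type replicate 1 (adjusted p = 0.0548), nor Fbxo2 without Arid3b-null replicate 1 or wild-type replicate 3 (0.0516 and 0.051). Nkx2-1, a factor of thyroid and lung endoderm, was not well above background on any Arid3b-null array, where its measured mean was -8.23. It read -5.67 on average in wild type, so that the fall was at least 1.63-fold. Nkx2-1 was tested only because of its signal on the wild-type arrays. Its adjusted p of 0.00236 rests on Arid3b-null signals not well above background, and it is 1 of the 2 counted as fallen. Under normexp with a median background per array its adjusted p was 0.169. For the bound, each Arid3b-null array entered with the dimmest signal that still counted as well above background there, or with the probe's own signal if that was brighter. Shh, a signal of endoderm and also of notochord and floor plate, was named after its values were seen and fell 1.58-fold (adjusted p = 0.0229). Shh did not pass under normexp with a median background per array (adjusted p = 0.0882) or without Arid3b-null replicate 1 or 2 or wild-type replicate 1 or 3 (0.0605, 0.0704, 0.0654 and 0.0503).

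Sox2 is also made with T in the neuromesodermal cells of the tail end of the axis, beyond the labelled end of the dissection. Of 7 tested caudal genes 3 rose (42.9%) and 1 fell (14.3%), beside 13.6% and 12.9% of all tested genes, with a median of 0.26. Cdx4, Wnt3a and Fgf17 were not tested because they were too dim. Tbx6, a factor of presomitic mesoderm, rose 3.15-fold (adjusted p = 0.000568), Cdx1 1.70-fold (0.0102) and T 1.78-fold (0.0435), while Nkx1-2, a gene of the caudal neural plate, fell 1.99-fold (0.00236). The summed signal of the list was 7.31 to 8.14 in Arid3b-null and 5.87 to 6.28 in wild type. The call of T was lost without any Arid3b-null array or wild-type replicate 3 (adjusted p = 0.108, 0.106, 0.088 and 0.0603), and that of Nkx1-2 when all its probes were averaged (-0.27, adjusted p = 0.197). Without the filter on dim probes, which adds genes to the adjustment, T, Zic5, Prom2, Pax8, Fbxo2, Tie1, Met and Meox2 did not pass (adjusted p = 0.0582 to 0.126), nor did Sox8, Sox18, Ncam1, Lin28a, Pou3f1 and Shh (0.0801 to 0.148). T also missed under normexp with quantile scaling (0.0517).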

How the data were processed

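Labelled RNA (Cy3, one colour) was made by T7 amplification, per the labels' protocols. Per the file headers, spots were read with Agilent Feature Extraction 10.7.3.1 (protocol GE1_107_Sep09, design 026655, build mm9). The deposited intensity values are linear: a background-subtracted processed signal, and the median pixel signals of spot and background used for normexp. The deposited value table holds log2 values, scaled between arrays by a method the sources used here do not give. It served as an alternative. It follows the processed signal in direction (correlations of 0.9987 to 0.9999 per array), is not centred per gene, and its column medians run from 6.765 to 6.771.

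Spots marked as outliers (100 to 169 per array) were left out and spots of 1 probe averaged. Accessions were matched to RefSeq symbols (GRCm38.p6, used for names, neighbours and start sequences), giving 1 symbol for 67% of 39429 probes and none for the rest. Testing needed a signal well above background on the 3 arrays of at least 1 group, and the brightest tested probe represented a gene. limma 3.58.1 in R 4.3.3 (lmFit and eBayes, two-sided, Benjamini-Hochberg, threshold 0.05) gave every adjusted p, also for values of probes. The fit was checked on simulated data.

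Arrays of the same replicate number shared a slide, so replicate number and slide are 1 block. Deviations from the group means correlated at 0.16, 0.39 and 0.28 within slides and at -0.35 to 0.12 between slides. Deviations sum to 0 within a group, so these correlations are not independent and do not test pairing. The main fit left the block out. For Fabp7, Sox3, Sox21, Nes and Zic2 the limma adjusted p was 0.000854 to 0.00509 without the block and 0.00656 to 0.0153 with it. The number of arrays limits the precision. The 10 genes and all lists were chosen with earlier results of these data known. After their values were seen, 6 further genes were named, and so were Hes1, Hes3 and Cldn5. The genes named were Arid3b, the 10 genes, their 8 listed paralogues, and up to 4 called genes of each other list by adjusted p; 2 of these are counted in their lists but not reported here. Protein sequences were not used here.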

Additional observations from a re-analysis of the deposited data

How the results depend on the processing

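Fabp7, Sox3, Sox21 and Nes fell and Zic2 rose in 15 of 16 alternatives, the exception being normexp with each spot's local background and 75th percentile scaling. There 0 of the 10 genes rose and 0 fell by limma (0 and 3 at an unadjusted p under 0.05), with 2 rises and 0 falls over all genes (1013 and 912 at an unadjusted p under 0.05), a median change over all genes of -0.22, and changes of -1.25, -1.01, -1.09, -0.71 and 0.47 for those 5 genes, while Zic1 turned to 0.17, Zic5 to -0.51, Prom2 to -0.73, T to -0.45, Pax8 to -0.19, Erbb3 to -0.61, Met to -0.38 and Pou3f1 to -0.15. With each array's median background in place of the local one the counts were 1 rise and 4 falls of the 10, and the cause was not tested further. With the replicate block, which is also the slide, 1 of the 10 genes rose and 4 fell, and it changed no call of the 10 genes; among the other genes named here it changed those of Fabp5, Tie1, Sox8 and Sox18. Leaving out 1 array at a time gave 1 rise and 4 to 5 falls among the 10, 1660 to 2047 rises (1660 without wild-type replicate 1, 1769 without Arid3b-null replicate 2) and 1205 to 2038 falls over all genes (1205 without wild-type replicate 1, 1542 without Arid3b-null replicate 3, 1631 without wild-type replicate 2, 1662 without Arid3b-null replicate 2), changes of Sox2 from -0.28 to 0.11, of Sox14 from -0.75 to 0.38 and of Msi2 from -0.0274 to 0.26. Without a filter on dim probes 1288 genes rose and 998 fell, 32530 genes then being tested. Averaging the probes of a gene put Zic1 at 0.0091. Keeping outlier spots was chosen after seeing the data.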
